A study of Drosophila melanogaster with 4 samples.

Results

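Long stretches of the fly autosomes that carried no called region of H4K16ac, an acetylated lysine in the tail of histone H4, were described in chromatin from adult heads. All enriched regions (clusters, as called by the authors) on the arms 2L, 2R, 3L and 3R were pooled from 3 lists, and every uncovered stretch of 50 kb or more was kept. This gave 452 stretches, out of 4063 uncovered stretches of any length on these arms. The lists came from ChIP-seq of Oregon-R flies of wild-type genotype, labelled as mixed adults with no stated sex. Each of the 2 H4K16ac ChIP replicates gave 1 list, and the third list is the authors' combined list for the replicate set. The series also holds 2 input samples of unprecipitated chromatin, whose own files were not used here. Nothing in the labels says that the replicates came from separate collections of flies, so their spread may be technical only.

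In Drosophila H4K16ac is placed by the acetyltransferase MOF, which acts in the MSL complex on the male X and in the NSL complex at promoters of active genes. The acetyl group loosens the packing of nucleosomes, and the mark is known to be low over silent chromatin, both where Polycomb proteins act and in the compact chromatin around centromeres. A stretch as used here is a place where no cluster was called, which is not the same as a place without the mark. A head holds many cell types, and in such a mixture a mark in few cells and a weak mark in all cells cannot be told apart. Read numbers are not part of the lists, so the depth is not known and no detection limit can be given.

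The 452 stretches measured 55.0 Mb together, which was 57.0% of the 96.6 Mb of the 4 arms. By number they were 11.1% of all uncovered stretches, and by length they held 63.8% of the uncovered sequence. The median uncovered stretch of any length was 5.21 kb. The stretches were chosen by the positions of the clusters, so their number and length are a description and were not tested.

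In replicate 1 alone, 503 stretches of 50 kb or more covered 67.98% of the arms. In replicate 2 alone, 478 covered 64.1%, so the replicates gave 66.02% ± 2.76 (SD, n = 2). The combined list, which has more clusters (4063, against 2904 in replicate 1 and 3199 in replicate 2), gave 453 stretches over 57.1%. The pooled value is therefore close to that of the combined list alone and below that of each replicate.

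Most stretches were short and a few were very long. The median length was 91.7 kb, the middle 50% lay between 63.7 and 148 kb, and 10% were longer than 227 kb. Stretches of 50 to 100 kb numbered 238 and held 29.4% of the stretch length. The 155 of 100 to 200 kb held the most, 39.4%. There were 37 of 200 to 300 kb and 22 of 300 kb or more, with 16.4% and 14.7% of the length. Around the 50 kb limit, 7 stretches lay at most 1 kb inside it and 9 at most 1 kb outside. The nearest were 50245 bp on 3L, from 7376315 to 7426559, and 49840 bp on 3L, from 21568916 to 21618755.

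**Figure D1:**
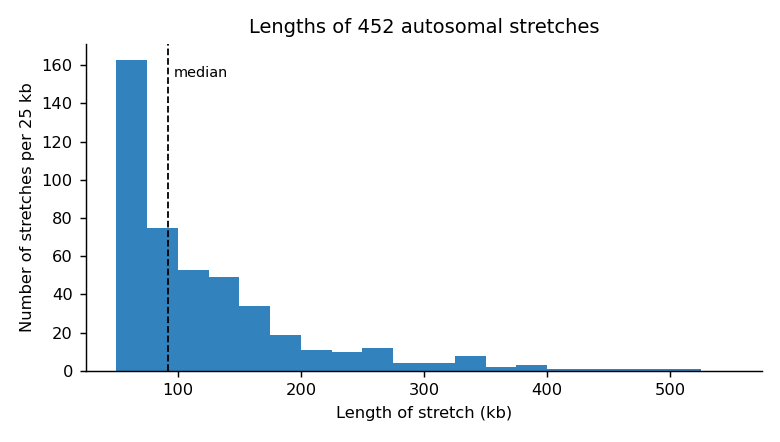
Histogram of the lengths of the 452 stretches in kb, with the number of stretches per 25 kb on the vertical axis and the median of 91.7 kb as a dashed line. The counts fall away from the 50 kb limit, and the longest stretch is 509.9 kb.

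The longest stretch lay on 3L, from 18104172 to 18614040, and measured 509.9 kb. The uncovered gap that held it was 510.0 kb in the first replicate, 561 kb in the second and 509.9 kb in the combined list. Next came 2 stretches on 2L. The one from 15768925 to 16253218 measured 484 kb, in gaps of 491 kb in replicate 1 and 484 kb in replicate 2. The one from 16910832 to 17380764 measured 469.9 kb and lay in gaps of 521 kb in each replicate, because clusters of the combined list alone bounded it at both ends. These 3 stretches differ in how far the replicates set their limits.

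The fourth stretch lay on 3L from 22282963 to 22709040 (426 kb) and the fifth on 3R from 2486713 to 2891631 (405 kb). In the replicates the gaps around them were 426 kb in both lists for the first, and 405 kb in both for the second. The longest stretch of 2R, from 2103279 to 2497294, measured 394 kb in gaps of 415 kb in replicate 1 and 394 kb in replicate 2. The limits of the 3L and 3R stretches thus hardly moved between lists, while that of the 2R stretch was wider in replicate 1.

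Of the 20 longest stretches, all of 306 kb or more, 8 lay on 2L, 7 on 3L, 4 on 3R and 1 on 2R. Together they held 13.6% of the stretch length. For 7 of the 20 the gap was at most 1 kb longer in every list. One of these was the second longest of 3R, from 12478868 to 12816362, with 337.5 kb in the pool, 337.6 kb in replicate 1 and 337.5 kb in replicate 2. Others were on 3L from 13039010 to 13379655 (341 kb), from 14066262 to 14401817 (336 kb) and on 3R from 1835092 to 2170284 (335 kb). The largest disagreement was on 2L: the stretch from 14611764 to 15005168 was 393 kb, but the gap around it was 642 kb in replicate 1 and 513 kb in replicate 2.

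Other stretches of this length on 2L were one of 372 kb from 17591430 to 17963132 and one of 360.5 kb from 21759429 to 22119898. Nearer the telomere of 2L lay those from 4466528 to 4791831 (325 kb), from 3868940 to 4186257 (317 kb) and from 1185613 to 1491795 (306 kb). On 3L they ran from 13507731 to 13895208 (387 kb), from 15157342 to 15493702 (336 kb) and from 23333781 to 23664803 (331 kb). On 3R the last ran from 23814489 to 24150588 (336 kb). On 2R, which had 1 stretch among the 20 longest, the next were 304 kb, from 16560004 to 16863781, and 274 kb, from 18967393 to 19241854. On 2L the longest stretches thus stood both near the telomere and towards the centromere, while all 7 on 3L lay nearer the centromere than the telomere.

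The arms differed in how much of them lay in stretches. On 2L 104 stretches held 63.4% of the arm, on 3L 115 held 58.7%, on 3R 136 held 56.0% and on 2R 97 held 49.2%. The order was the same in each of the 3 lists. In the replicates the shares were 71.2% ± 2.53 on 2L, 68.7% ± 3.10 on 3L, 64.5% ± 2.45 on 3R and 59.3% ± 3.02 on 2R (SD, n = 2 each). Within a list 2L exceeded 3L by 2.17 percentage points in replicate 1 and 2.99 in replicate 2 (mean 2.58 ± 0.574, SD, n = 2). In the replicates this step was small, and its SD is the spread between 2 lists, which may be technical only. The steps from 3L to 3R (4.16 ± 0.651) and from 3R to 2R (5.17 ± 0.566) were larger there. The combined list ranked the steps otherwise, with 4.75 points from 2L to 3L, 2.55 from 3L to 3R and 6.47 from 3R to 2R. No test between arms was made. The number of stretches per Mb was nearly level, from 4.52 on 2L to 4.87 on 3R. What differed was their length, with a median of 116 kb on 2L, 102 kb on 3L, 87.5 kb on 3R and 81.6 kb on 2R.

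By the same rule the X, which is known to carry the mark over much of its length in males, had 20 stretches over 9.46% of its 22.4 Mb. In the replicates they held 19.0% ± 0.587 of the X (SD, n = 2). The median X stretch measured 75.8 kb. The longest, 332 kb, was shorter than 16 of the autosomal ones. Since the positions of clusters define the stretches on the autosomes and on the X alike, no test was made.

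**Figure D2:**
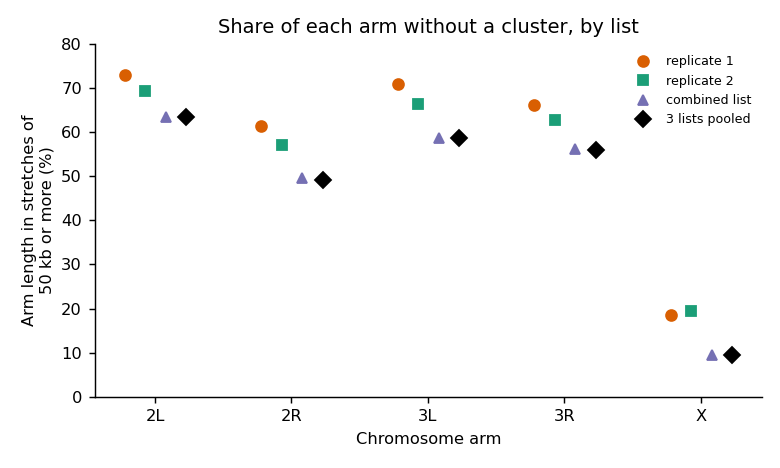
Percentage of each arm's length that lay in stretches of 50 kb or more, for replicate 1, replicate 2, the combined list and the 3 lists pooled. The autosome arms lie between 49.2% and 73.0% in every list, with 2L highest and 2R lowest, and the X lies between 9.46% and 19.4%.

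Of the 448 zones between neighbouring stretches, 138 were 25 kb or less. Stretches filled 57.0% of the arms, and no comparison with another spacing was made, so their grouping is a description. Where stretches at most 25 kb apart are taken as a group, 234 of the 452 (51.8%) stood in 96 groups and 218 stood alone. There were 70 groups of 2, 16 of 3, 6 of 4, 2 of 5 and 2 of 6. The share in groups ran from 46.4% on 2R to 55.8% on 2L. Grouped stretches had a median length of 101 kb and single ones of 87.2 kb. The 25 kb limit was a choice: at 10 kb 37.6% stood in groups and at 50 kb 70.6%.

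**Figure D3:**
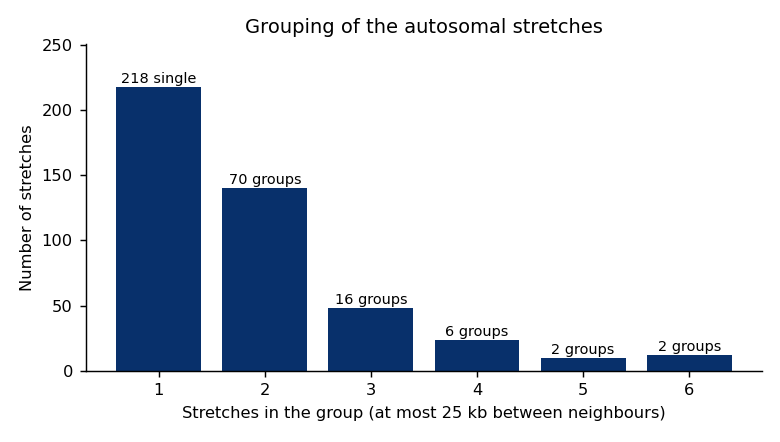
Number of stretches that stood alone or in groups of 2 to 6, where neighbours in a group are at most 25 kb apart; the label on each bar counts the groups. The 218 single stretches and the 70 groups of 2 hold most of the 452.

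The longest groups were neighbours on 2L. From 13905319 to 15005168, 6 stretches filled 96.8% of 1100 kb, with 8 blocks of clusters between them. A block is a run of overlapping clusters over the 3 lists. From 15114841 to 16253218, 4 stretches filled 96.1% of 1138 kb, with 7 blocks between them. Of these 15 blocks, 8 held a cluster in each replicate. The strongest, from 14358396 to 14363403, had scores of 0.96 in replicate 1 and 1.26 in replicate 2. The score is the authors' own value per cluster, and its scale is not stated.

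The bin of 1 Mb with the most stretch length fell in this part of 2L. Between 14 and 15 Mb stretches covered 96.5%, with 5 called clusters in replicate 1, 6 in replicate 2 and 8 when combined by the authors. Over the 95 full bins the median was 56.2%, and 6 reached 80%: 3 on 2L and 3 on 3L. The lowest bin, on 3R between 5 and 6 Mb, lay in stretches to 19.2% and held 61 and 69 clusters in the replicates. It was the one bin under 20%. Every full bin of 1 Mb on the 4 arms held some stretch length.

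The other group of 6 lay on 3L, from 6089428 to 6947299, and differed from those on 2L. It held 13 blocks in 858 kb, and 12 of them had a cluster in each replicate. Its stretches were 76.4 to 197 kb long. On 2R, the group of 4 from 15392005 to 16122449 was the opposite case: of its 4 blocks, 3 came from the combined list alone, and in the 2 replicates pooled its last 3 stretches were 1 gap of 563 kb. The group of 4 from 4061614 to 4486105 on 2R had 3 blocks, each found in both replicates.

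Groups of 4 or 5 also stood on 3L and 3R. On 3L they ran from 7376315 to 7704886 (4 stretches over 329 kb) and from 14066262 to 14747752 (4 over 681 kb). On 3R they ran from 12915119 to 13431155 (4 over 516 kb), from 15056475 to 15672328 (5 over 616 kb) and from 21720590 to 22248035 (5 over 527 kb). In all 10 groups of 4 or more there were 64 blocks between stretches. A cluster in each replicate was found in 64.1% of them, in 1 replicate in 20.3%, and in the combined list alone in 15.6%. Among all 4059 autosomal blocks these shares were 62.9%, 17.5% and 19.6%.

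**Figure D4:**
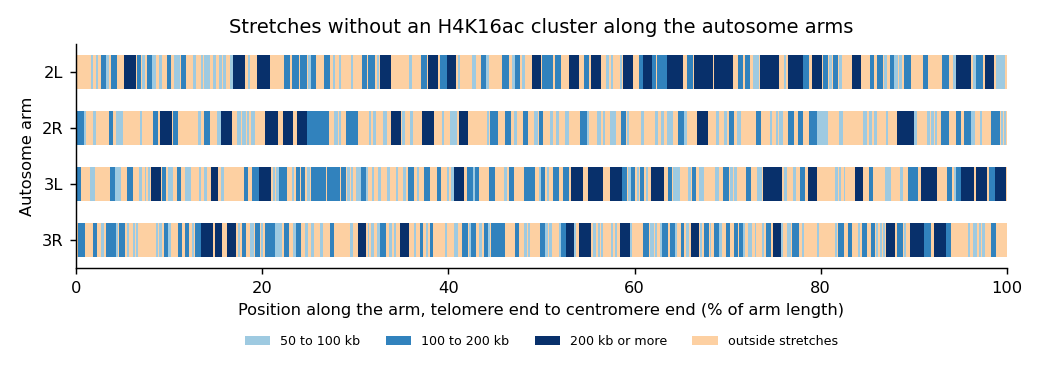
Map of the 4 arms from the telomere end (left) to the centromere end (right), as a percentage of arm length; stretches are blue, darker for longer ones, and the remaining sequence is orange. Stretches stand along the whole of each arm, with runs of dark blue on the centromere side of the middle of 2L and at the centromere end of 3L.

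At the ends of the arms, stretches took more of the sequence near centromeres than near telomeres on 2L, 2R and 3L. Over the terminal 1 Mb, stretches covered 66.7% at the 4 centromere ends and 44.0% at the 4 telomere ends, beside 57.0% of the arms as a whole. In the replicates the values were 73.0% ± 0.825 at centromere ends, 54.8% ± 0.327 at telomere ends and 66.02% ± 2.76 over the arms (SD, n = 2). The centromere end of 3L was covered most, at 86.6%, followed by 2L at 78.1% and 2R at 61.0%. The centromere end of 3R was at 41.2%, below its telomere end at 46.9%. With 4 arms that do not all go the same way, the difference between the ends was not tested. The ends are those of the arm sequences in the file headers. Which sequence there could take reads is not given in the lists, so its share in the stretches is unknown.

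The centromere end of 3L held few clusters. In its last 1 Mb there were 9 blocks, against 23 on 2L, 27 on 2R and 48 on 3R. The last 4 stretches of 3L, from 23333781 to 24526944, measured 331, 288, 155 and 301 kb. The last of them was 301 kb in the replicate 2 list but part of a 461 kb gap in replicate 1. On every arm a cluster stood close to the centromere end, between 759 bp (3R) and 41755 bp (2L) from it. On 3R this rested on replicate 1 and the combined list, since the first cluster of replicate 2 lay 45928 bp in.

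At the telomere ends, 1 stretch touched the end of an arm. It was the first 121771 bp of 3L, bounded by a cluster of the combined list alone, and it was longer in the replicates, 130.5 kb in replicate 1 and 136 kb in replicate 2. The end of 2R was similar in the replicates but not in the pool. There the stretch from 20971950 to 21140515 (169 kb) stopped 6193 bp short of the end at a cluster that only the combined list held, with a score of 0.048. In the replicates the gap ran on to the end of the arm, over 175 kb in each. On 2L the first cluster stood 20637 bp from the telomere end and the first stretch began 359 kb in.

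Along 2L the share of stretches was highest on the centromere side, and the other arms did not show this order. On 2L they took 58.4% of the telomere-side part when the arm was cut in 3 equal parts, 61.7% of the middle and 70.3% of the centromere side. On 2R the telomere side was highest (53.2%) and the middle lowest (45.1%). On 3L and 3R the 3 parts differed by at most 2.84 percentage points.

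Each stretch is bounded by a block of clusters. The 452 stretches had 830 such blocks between them, since 73 blocks had a stretch on both sides. The bordering blocks were 2045 bp wide (median), against 2146 bp for the 3229 other autosomal blocks. A cluster in each replicate was present in 63.1% of bordering and 62.8% of other blocks. The combined list alone supplied 19.2% of bordering and 19.7% of other blocks. By support from the replicates, bordering blocks were thus close to the rest.

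Scores of bordering blocks were slightly lower. The score of a block in a list was taken as the highest of that list's clusters in it. The median was 0.53 for bordering and 0.56 for other blocks in replicate 1, and 0.56 and 0.57 in replicate 2. The difference was -0.020 ± 0.0090 (bordering minus other, SD, n = 2). In blocks found in both replicates it was -0.022 in replicate 1 and -0.020 in replicate 2. It was below 0 on 2L (-0.024 ± 0.011), 2R (-0.0057 ± 0.0021) and 3L (-0.051 ± 0.0066) but above 0 on 3R (0.011 ± 0.0044). These differences are small beside the spread of scores within each class, and they were not tested.

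**Figure D5:**
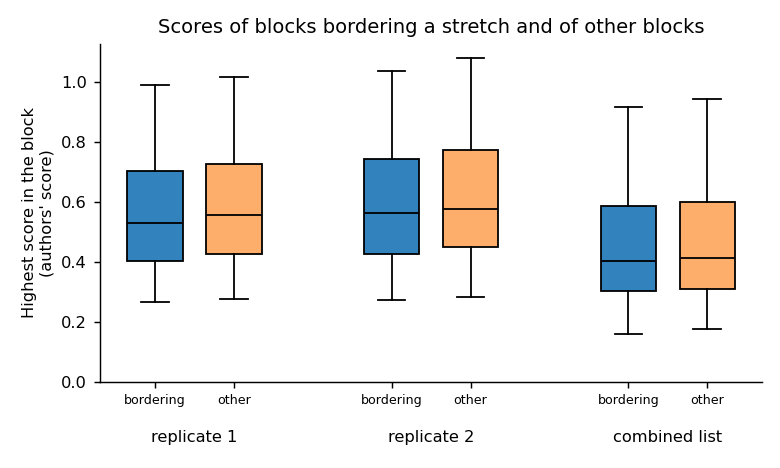
Highest authors' score per block in each list for blocks that border a stretch (blue) and for other autosomal blocks (orange); boxes show the quartiles and the median, whiskers the 5th and 95th percentiles. The boxes overlap almost fully in each list, with medians of 0.53 and 0.56 in replicate 1.

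Blocks with a stretch on both sides differed somewhat more from the rest, but they were few. The 73 of them had a median width of 1938 bp. Their median scores were 0.48 in replicate 1 (45 blocks) and 0.49 in replicate 2 (48 blocks). Of the 73, 39 (53.4%) held a cluster in each replicate and 19 (26.0%) came from the combined list alone. Among the blocks that border no stretch these shares were 62.8% and 19.7%. The differences rest on few blocks and were not tested. The widest was a 7.61 kb block on 3L, from 22063180 to 22070784, with scores of 0.92 and 1.02 in the replicates, between stretches of 115 and 143 kb. A 4.80 kb block on 3R, from 2481912 to 2486712, with scores of 0.45 and 0.68, divided the 405 kb stretch from one of 198 kb.

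Some bordering blocks had high scores. The highest was on 3R, from 4475249 to 4480253, at 1.49 in replicate 1 and 1.57 in replicate 2 (mean 1.53 ± 0.057, SD, n = 2), next to a stretch of 84.2 kb. The others were on 2R from 16599 to 20005 (1.49 ± 0.068) and from 18948742 to 18956536 (1.48 ± 0.067), on 3R from 9783639 to 9785952 (1.46 ± 0.19) and on 2L from 8996645 to 8999128 (1.28 ± 0.090). Of the 100 autosomal blocks of highest mean score in the replicates, 17 bordered a stretch, and 20.4% of all blocks did.

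The length of a stretch went with no clear change in its borders. Blocks at the edges of stretches of 50 to 100 kb had median scores of 0.52 and 0.55 in replicates 1 and 2. At stretches of 300 kb or more they were 0.52 and 0.56. At those of 200 to 300 kb they were 0.60 and 0.63, over 74 edges.

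The replicates placed the edges closely where both had a cluster in the bordering block. Over 563 such edges the distance between them was 76 bp (median), and 90.4% lay within 500 bp of each other. Edges without a cluster in both moved much more. For 154 of the 452 stretches (34.1%) the gap was at most 1 kb longer in every list. It was longer by 50 kb or more in replicate 1 for 86 stretches, in replicate 2 for 77 and in both for 55. Of the 903 edges, the combined list alone set 657 exactly, replicate 2 alone 188 and replicate 1 alone 51.

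Sequence within 50 kb of a bordering block was slightly poorer in clusters than the sequence outside this distance. The flanks were taken as the 50 kb beyond each bordering block, and stretches and bordering blocks were left out of both regions. There were 57.0 clusters per Mb in the flanks and 60.5 beyond them in replicate 1, and 63.2 and 66.4 in replicate 2. The means were 60.1 ± 4.36 in the flanks and 63.5 ± 4.17 beyond (SD, n = 2 each). The value was slightly lower in the flanks in each replicate, and no test was made. Between neighbouring stretches, only zones longer than 100 kb can hold sequence beyond the flanks, and 153 of the 448 zones measured 100 kb or more. Shorter zones lie wholly in the flanks, so distance from a stretch cannot be told apart from the length of the zone. Cluster positions also define both the stretches and the zones. The SD of each mean holds the offset between the 2 lists, so it does not measure the spread of this difference. The 448 zones between neighbouring stretches had a median length of 60.2 kb and a median of 6 blocks. The longest, 539 kb on 3L from 3891910 to 4430957, held 46 blocks.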

How the data were processed

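Nuclei of adult Oregon-R heads were profiled by ChIP-seq with an antibody against H4K16ac, in 2 ChIP and 2 input samples. Per the submitters' processing notes, the aligner was Bowtie 0.12.7. The deposited files are lists of regions on FlyBase release 5, per the file headers, each region with a score that the authors set. The score was above 0 for every region named enriched and below 0 for every region named depleted. How regions were called and replicates merged, with which thresholds, and on which scale the score stands is not given in the sources used here. The lists hold no read numbers, so depth is unknown.

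Enriched regions of the 3 lists were joined into blocks where they overlapped or touched, and depleted regions were set aside. Uncovered stretches of 50000 bp or more were taken within the arm lengths of the headers. Release 5 arms 2L and 3L start at the telomere, 2R and 3R at the centromere. Values per replicate are mean ± SD (n = 2). Of files of the input group none was used, and no test between groups was made. Tests by resampling positions were not made either, since cluster positions chose the stretches. Named stretches are the 20 longest, the 3 longest of each arm, any that touched an arm end, those in groups of 4 or more (given as groups) and the nearest to the limit. Named blocks are the 5 of highest score at a border. Blocks and groups named as contrasts were chosen after their values were seen, as were those beside flanks and dividers. Members and lists were chosen with earlier results of these data known. The annotation at hand was of release 6, so genes and gene complexes were not placed and are not analysed here. The stretch finder was tested on simulated data. Alternatives varied the lists pooled, the minimum length, the score, the overlap, the group distance, the end window and the flank. Computations used Python 3.11.15, numpy 2.4.6, scipy 1.17.1 and matplotlib 3.10.9.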

Additional observations from a re-analysis of the deposited data

Results flagged for a closer look

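The authors also named regions of significant depletion, which were set aside above. The combined list held 8 of them on the 4 autosome arms, and replicate 1 held 1. They are given here because the stretches were defined from enriched regions only, without them. Of the 8, 1 lay inside a stretch, on 3L from 13039427 to 13041212, in the stretch of 341 kb. Stretches covered 57.0% of the arm length, but not all of the 8 regions could lie in one, as given below. The regions are too few to set their count against this share. The region of replicate 1, on 3R from 2862272 to 2864052, lay inside the stretch of 405 kb.

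Of the 8 regions, 5 overlapped a cluster that 1 replicate list named as enriched, 2 in replicate 1 and 3 in replicate 2. These 5 could not lie in a stretch, because the rule counts such a cluster as covering. The depleted region held at least 95.7% of each such cluster. Their replicate scores ran from 0.014 to 0.13 and stood within the lowest 0.203% of their own list, while the combined scores of the 5 regions were all below 0. One of them set the edge of a stretch. The replicate 2 cluster on 2R from 4060230 to 4061613 (score 0.13) bounded the stretch from 4061614 to 4123770 (62.2 kb), and the combined list named 4060008 to 4061728 as depleted (score -0.019). Why the lists named the same place in opposite ways was not tested.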

How the results depend on the processing

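The number of stretches, 452, was 452 to 504 in every choice of lists and scores tried. At a minimum length of 20 kb it was 941 and at 100 kb 214. The share of the autosomes in stretches, 57.0%, was more sensitive. It was 67.98% in replicate 1 alone, 64.1% in replicate 2 alone, 62.8% in the replicates pooled, 69.7% with clusters found in both replicates and 79.6% with the 50% of clusters of highest score. It was 73.0% at 20 kb and 40.2% at 100 kb. Leaving out 1 replicate list, with the combined list kept, gave 57.0% of the length in stretches each time and 452 to 453 stretches. The combined list alone gave 57.1% and 453 stretches, so these settings cannot show how far the values depend on a replicate. The share in groups, 51.8%, was 37.6% at 10 kb, 70.6% at 50 kb, 57.7% with the replicates pooled, 84.8% with stretches of 20 kb or more and 29.9% with those of 100 kb or more. Leaving out 1 replicate list, again with the combined list kept, gave 51.7 to 51.8%.

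Of the stretch length, 4.85% lay in the 1 Mb at centromere ends and 3.20% in that at telomere ends, beside 4.14% of the arm length each. Windows of 0.5 Mb gave 2.36% and 1.46%, beside 2.07%, and windows of 2 Mb 8.76% and 7.22%, beside 8.28%. The telomere value was 3.49% with the replicates pooled, 3.61% at 20 kb and 2.96% at 100 kb. Leaving out 1 replicate list, with the combined list kept, moved it to 3.19%, and the centromere value to 4.84%. Centromere ends were above the share of arm length and telomere ends below it in each setting. The score difference at borders, -0.020, was -0.0093 in the combined list, -0.030 with stretches of 20 kb or more and -0.013 to -0.026 in single replicates. The difference in median width, -75.3 bp, was -101 bp over the whole block, -97 bp in the combined list, -94 bp at 20 kb, -62.8 bp at 100 kb and -83 to -67.5 bp in single replicates. The flanks held 42.8 clusters per Mb with other stretches included, 48.3 for 25 kb, 37.1 for 100 kb, 40.6 to 44.9 in single replicates 66.7 without other stretches and 60.1 without bordering blocks as well. The causes were not tested. Leave-one-out, pooled-replicate (groups and ends) and both restricted flank settings were chosen after seeing the data. No paired analysis was possible because the replicate numbers are shared only with the inputs, whose own files were not used here.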
